A study of Mus musculus with 28 samples.

Results

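The kainic acid effect on ribosome-bound RNA of parvalbumin (PV) cells was compared with the effect on the surrounding CA1 tissue. The difference was computed for each gene as the log2 change in the IP minus the log2 change in the input. All 16 PV libraries of the 28 in the series were used, chosen by their labels: 4 PBS IP, 4 kainic acid IP, 4 PBS input and 4 kainic acid input libraries. Every mouse was a C57BL/6 animal aged 3 to 4 weeks that carried PV-Cre/+ and LSL-Rpl22-HA/+, so PBS controls and treated mice shared both alleles. CA1 of the hippocampus was collected 6 h after kainic acid or, per the labels, 6 h after PBS, although columns of PBS libraries are headed 0 h in the tables. Tissue of 9 to 10 mice was pooled for each bioreplicate, the IP used 12 µg of anti-HA antibody, the input was lysate set aside before the IP, and 2.5 ng of RNA entered each library. The same contrast in CaMK2a-Cre mice (12 libraries, 3 per group) serves only as a comparison. There 4 mice were pooled for each bioreplicate and 20 ng of RNA entered each library.

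In RiboTag mice, Cre recombinase switches a ribosomal protein gene to a form with an HA tag, so ribosomes and the transcripts on them can be pulled from a lysate of mixed tissue. PV cells are fast-spiking GABAergic interneurons that inhibit the soma and axon initial segment of pyramidal cells, and they are a small minority in CA1. Kainic acid, a glutamate receptor agonist, provokes seizures and with them immediate early genes, growth factors and neuropeptides. A gene that differs between IP and input is one whose change in the tagged fraction was not the change of the tissue as a whole. In pooled tissue, fewer cells of a type and less RNA per cell cannot be told apart.

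The PV libraries held 8497091 to 15847300 counts in coding genes. Replicate 4 stood apart in all 4 groups. Mitochondrial genes took 0.795% and 0.910% of its IP counts against 1.90% to 3.38% in replicates 1 to 3, and 4.10% and 4.83% of its input counts against 7.99% to 10.7%. Results are therefore set beside their values without replicate 4. The IP carried the labelled cell type: after PBS, 12 of 12 PV interneuron markers tested were higher in IP than in input, where 8.67% of all genes were higher and 7.22% lower. Summed, these markers reached 4852 to 5919 CPM (counts scaled to a common library size) in PBS IP libraries and 1234 to 1402 CPM in PBS inputs. RNA of other cells remained in the IP, with CA1 pyramidal neuron markers at 4939.7 to 5769 CPM and astrocyte markers at 5382 to 7066 CPM. No marker tested was at 0 in all 4 libraries of a group.

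Kainic acid changed many of the same genes in both fractions. In the IP, 776 of 11862 genes rose (6.54%) and 285 fell (2.4%). In the input, 603 rose (5.08%) and 214 fell (1.8%). Of the genes that passed the threshold (adjusted p under 0.05), 573 did so in both fractions, which is 54.0% of the IP list and 70.1% of the input list. All 573 moved in the same direction in IP and input. Across 8345 genes with a mean log2 CPM of at least 3, IP and input effects correlated with Pearson's r = 0.834, a description across genes from paired lysates and not a test. Without replicate 4 the coefficient was 0.768 over 8158 genes.

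The effect differed between IP and input for 3 of 11862 genes (0.0253%). The protease gene Tll1 and the gene Fam43a had a lower change in the IP than in the input, and the autophagy gene Vmp1 a higher one. An unadjusted p under 0.05 was reached by 504 genes, fewer than the 593.1 that this threshold alone would give. The 95% interval of a gene's difference reached a median of 0.93 to either side on the log2 scale, or 1.90-fold, so smaller differences were mostly not detectable.

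**Figure D1:**
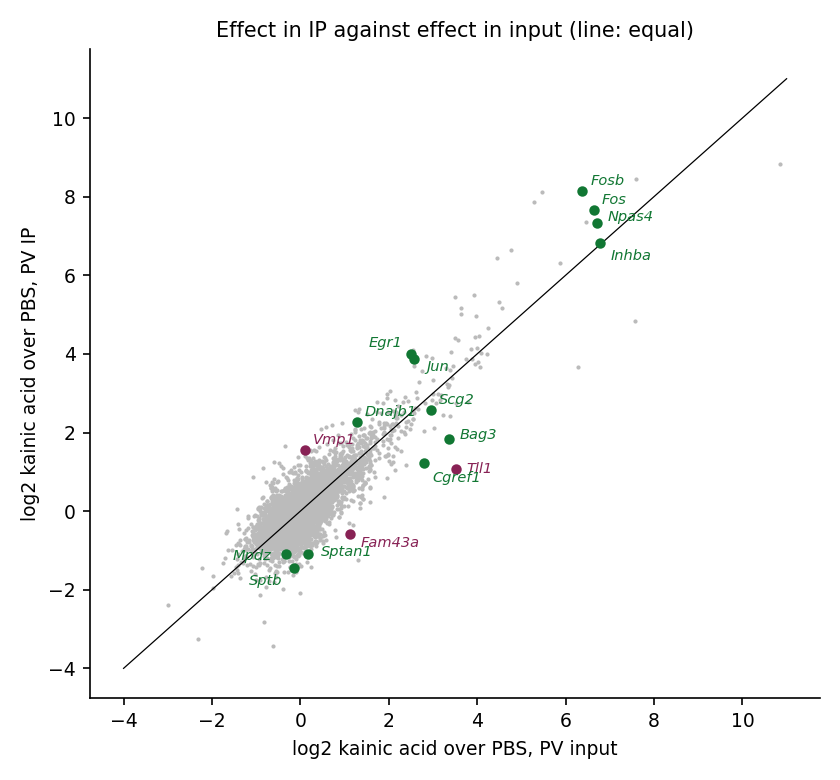
Each grey point is 1 of 8345 genes with a mean log2 CPM of at least 3; the x axis is the log2 change after kainic acid in PV input and the y axis the log2 change in PV IP, with the line at equal change. Purple marks the 3 genes whose difference passed the threshold over 16 libraries, Vmp1 above the line and Tll1 and Fam43a below it, and green marks other genes named in the text.

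Tll1 (gene ID 21892, chromosome 8, 64013098 to 64205993, minus strand, 23 exons) encodes tolloid-like 1, a secreted metalloprotease that cleaves the BMP antagonist chordin and procollagens. PBS IP libraries held 45.5, 65.6, 49.96 and 34.5 CPM in replicates 1 to 4, and kainic acid IP libraries 107, 128, 74.5 and 98.9 CPM. Input libraries held 6.31, 5.67, 5.25 and 4.43 CPM after PBS and 56.0, 70.0, 76.1 and 47.7 CPM after kainic acid. Both fractions were higher after kainic acid without overlap, and the PBS level was far lower in the input than in the IP. The rise was 2.09-fold in the IP (log2 1.06 ± 0.22 SE, adjusted p = 0.00324) and 11.5-fold in the input (3.53 ± 0.25, adjusted p = 7.1e-09). Within single pools, log2 IP over input was 2.76 to 3.42 after PBS and -0.03 to 1.04 after kainic acid, with no overlap. The difference was -2.47 ± 0.32 (95% interval -3.14 to -1.79, adjusted p = 0.00244) and, with replicates 1 to 3, -2.63 ± 0.31 (adjusted p = 0.00182). Tll1 was 9.05-fold higher in IP than in input after PBS (adjusted p under the threshold, rank 40 of 11862 genes), and the IP remained above the input in 3 of 4 pools after kainic acid.

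Vmp1 (gene ID 75909, chromosome 11, 86583852 to 86683822, minus strand, 14 exons) encodes vacuole membrane protein 1, an endoplasmic reticulum protein required for autophagosome formation. It held 108, 96.8, 99.7 and 91.4 CPM in the PBS IP and 258, 239, 370.1 and 296 CPM in the kainic acid IP. The inputs stayed between 116 and 147 CPM, at 116, 137, 142 and 125 CPM after PBS and 138, 133, 147 and 141 CPM after kainic acid. Every kainic acid IP library lay above every other PV library. Vmp1 rose 2.94-fold in the IP (1.56 ± 0.15, adjusted p = 3.36e-07), while the input change was 0.10 ± 0.15 (adjusted p = 0.815). Log2 IP over input of single pools went from -0.51 to -0.11 after PBS to 0.84 to 1.33 after kainic acid. The difference was 1.45 ± 0.21 (95% interval 1.02 to 1.89, adjusted p = 0.00563) and 1.41 ± 0.21 with replicates 1 to 3 (adjusted p = 0.00657).

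The deposited Vmp1 model also covers a microRNA gene. In the RefSeq annotation of GRCm38.p6, the Mir21a hairpin (chr11:86584067-86584158, minus strand) lies inside a Vmp1 exon, 215 bases from the gene's 3′ end. Reads of a primary miR-21 transcript that crosses this exon and reads of Vmp1 mRNA cannot be told apart in these counts. The mature microRNAs are shown because they are the products encoded within the exon, with the seed (bases 2 to 8) in capitals. Neither was measured here.
mmu-miR-21a-5p: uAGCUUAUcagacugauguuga
mmu-miR-21a-3p: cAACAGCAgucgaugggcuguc

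Fam43a (gene ID 224093, chromosome 16, 30599723 to 30602797, plus strand, 1 exon) held 68.4, 112, 111 and 89.5 CPM in the PBS IP and 68.3, 58.0, 62.6 and 65.1 CPM in the kainic acid IP. Its inputs held 16.4, 16.4, 13.4 and 11.3 CPM after PBS and 34.4, 23.1, 32.4 and 34.8 CPM after kainic acid. The fractions moved apart in direction: the input rose 2.17-fold (1.12 ± 0.20, adjusted p = 0.00102), and the IP change of -0.58 ± 0.20 did not pass (adjusted p = 0.0726). Pool ratios were 2.03 to 3.00 after PBS and 0.89 to 1.31 after kainic acid. The difference was -1.70 ± 0.28 (95% interval -2.29 to -1.11, adjusted p = 0.0265). With replicates 1 to 3 it was -1.61 ± 0.31 and missed the threshold (adjusted p = 0.0738), and it passed in 7 of 16 fits that left out a single library.

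**Figure D2:**
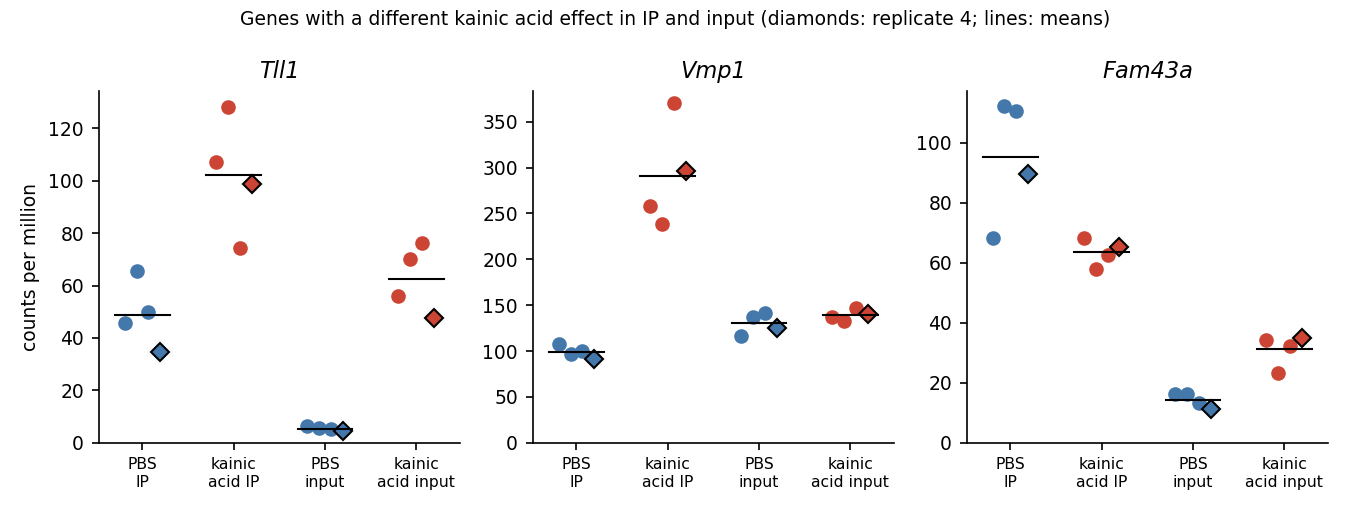
CPM on linear axes from 0 in each of the 16 PV libraries, for Tll1, Vmp1 and Fam43a; blue marks PBS, red kainic acid, diamonds replicate 4 and lines the mean of 4 libraries. Vmp1 separates only in the IP, from a mean of 98.8 to 291 CPM, while Tll1 reaches a mean of 62.4 CPM in the kainic acid input from 5.41 CPM.

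The calls rest on all of the first 3 replicates. Leaving out replicate 1, 2 or 3 with all its libraries left 0 genes past the threshold in edgeR's quasi-likelihood test, with 312, 373 and 345 genes at an unadjusted p under 0.05. Tll1 then had differences of -2.65, -2.38 and -2.21 (adjusted p = 0.12, 0.106 and 0.378), and Vmp1 of 1.59, 1.48 and 1.30 (adjusted p = 0.154, 0.26 and 0.558). Both genes passed in all 16 fits that left out 1 library.

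IP and input of a pool come from the same lysate per the series' design text, and the same replicate number was taken as the same pool. Deviations of same-numbered IP and input libraries correlated at 0.147 to 0.654, and at 0.00855 to 0.0818 without replicate 4. With this limit, the fit was repeated with each pool as a block. The difference then passed for 9 genes (0.0759%), 4 higher and 5 lower, including the 3 above with Tll1 at -2.43 ± 0.28 (adjusted p = 0.000214), Vmp1 at 1.43 ± 0.17 (adjusted p = 0.000281) and Fam43a at -1.68 ± 0.26 (adjusted p = 0.00822). Of the further genes, 5 are described, named after their values were seen: Jun, Egr1 and Dnajb1 with a larger rise in the IP, and Bag3 and Cgref1 with a larger rise in the input. In these 5, the 4 kainic acid pools and the 4 PBS pools did not overlap in IP over input. This was so for 2.46% of all genes upward and 2.03% downward. The blocked fit that chose the 5 genes tests these same ratios, so their separation is no further support.

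Jun and Egr1 encode immediate early transcription factors, Jun being a subunit of AP-1. Jun held 40.2, 42.0, 43.9 and 47.6 CPM in the PBS IP and 559.8, 481, 586 and 918 CPM in the kainic acid IP. In the input it held 76.8, 84.8, 91.6 and 78.9 CPM after PBS and 464, 381, 495 and 626 CPM after kainic acid. The IP therefore began below the tissue and ended above it in every pool, with log2 ratios of -1.05 to -0.72 after PBS and 0.24 to 0.55 after kainic acid. The blocked difference was 1.28 ± 0.15 (adjusted p = 0.000214, against 0.153 without the block), and Jun also passed without the block in replicates 1 to 3 (1.26 ± 0.17, adjusted p = 0.00217). Egr1 rose 16.1-fold in the IP and 5.64-fold in the input, with pool ratios of -1.51 to -0.91 after PBS and 0.13 to 0.48 after kainic acid. Its blocked difference was 1.51 ± 0.16 (adjusted p = 0.000171), against 0.851 without the block. With replicates 1 to 3 the Egr1 difference was 1.29 ± 0.33 without the block (adjusted p = 0.214) and 1.32 ± 0.15 with it (adjusted p = 0.000289). Jun shares exonic bases with the opposite-strand gene Junos, and the strand of the counts is not stated.

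Dnajb1 and Bag3 both belong to the heat shock response and moved in opposite directions relative to the tissue. Dnajb1, an Hsp40 co-chaperone of Hsp70, rose 4.78-fold in the IP and 2.41-fold in the input. Its IP held 99.4, 95.4, 71.9 and 56.2 CPM after PBS and 324, 263, 399.9 and 557 CPM after kainic acid, against 129 to 238 CPM in the kainic acid input. The blocked difference was 0.98 ± 0.18 (adjusted p = 0.0456). Bag3, a co-chaperone of Hsp70 in selective autophagy, rose 3.56-fold in the IP and 10.3-fold in the input. Its IP held 15.0, 24.7, 15.1 and 24.1 CPM after PBS and 57.3, 59.5, 74.3 and 89.9 CPM after kainic acid, whereas its input went from 8.15 to 10.5 CPM up to 66.1 to 148 CPM. The ratio of IP to input turned from above to below equality in all 4 pools, and the blocked difference was -1.46 ± 0.24 (adjusted p = 0.0193). Neither gene passed with replicates 1 to 3, at 0.77 ± 0.27 for Dnajb1 (adjusted p = 0.417) and -1.33 ± 0.34 for Bag3 (adjusted p = 0.212), and with the pools as blocks these were 0.105 and 0.116 as adjusted p.

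Cgref1, which encodes a calcium-binding EF-hand protein, rose more in the input than in the IP, as Tll1 did. It rose 2.34-fold in the IP, from 18.9 to 35.5 CPM up to 45.3 to 75.0 CPM. In the input it rose 6.95-fold, from 9.69 to 12.3 CPM up to 60.2 to 89.8 CPM. Unlike Tll1 in most pools, Cgref1 was lower in IP than in input in every kainic acid pool, at log2 ratios of -0.52 to -0.23. The blocked difference was -1.54 ± 0.28 (adjusted p = 0.0408). With replicates 1 to 3 the Cgref1 difference was -1.68 ± 0.36 without the block (adjusted p = 0.128).

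**Figure D3:**
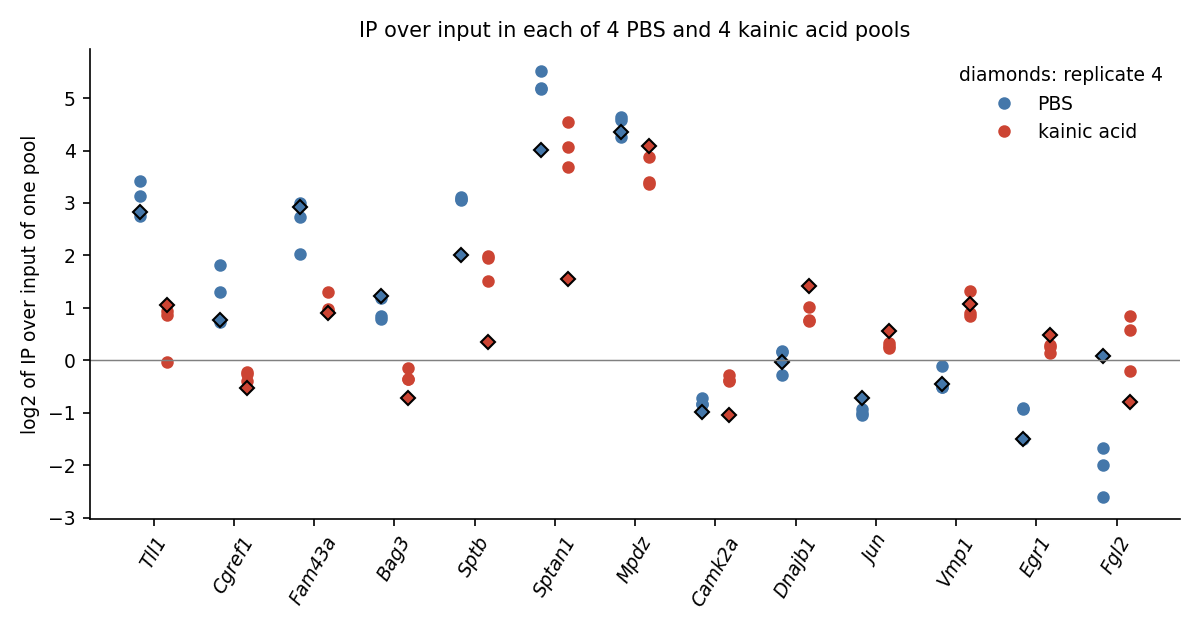
Log2 of IP over input within each of 4 PBS pools (blue) and 4 kainic acid pools (red), with replicate 4 as diamonds, for 13 genes whose difference passed in the fits with all replicates, with pools as blocks or with replicates 1 to 3. Tll1, Cgref1, Fam43a and Bag3 are lower after kainic acid in every pool and Jun, Vmp1, Egr1 and Dnajb1 higher, while replicate 4 lies apart for Sptan1, Camk2a and Fgl2.

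With replicates 1 to 3 only, 10 of 11705 genes passed (0.0854%), 6 with a lower and 4 with a higher change in the IP. Tll1, Vmp1 and Jun were among them. Also among them were the spectrin genes Sptb and Sptan1, the scaffold gene Mpdz, the kinase gene Camk2a and Fgl2. Spectrins form the membrane skeleton under the plasma membrane and the axon. Sptan1 was among the most abundant IP transcripts, with 23829, 21657, 21117 and 10003 CPM after PBS and 11239, 13911, 8874 and 1970.1 CPM after kainic acid. Its inputs stayed at 517 to 621 CPM after PBS and 594 to 689.6 CPM after kainic acid. Replicate 4 held the lowest Sptan1 level of its group in both IP groups, and leaving it out narrowed the SE of the difference from 0.50 to 0.15, with differences of -1.27 (adjusted p = 1) and -1.19 (adjusted p = 0.00217).

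Sptb, the erythrocyte-type beta spectrin, held 747, 932, 884 and 519 CPM in the PBS IP and 330.4, 333, 326 and 139 CPM in the kainic acid IP, against 82.1 to 129 CPM in all inputs. Its fall in the IP passed over 16 libraries (-1.45 ± 0.24, adjusted p = 0.000347), and its difference was -1.31 ± 0.18 in replicates 1 to 3 (adjusted p = 0.00291) and -1.31 ± 0.33 over 16 libraries (adjusted p = 0.809). Mpdz, a multi-PDZ scaffold protein, held 1180.1, 1218, 1072 and 803 CPM in the PBS IP and 450.1, 559.6, 427 and 573 CPM in the kainic acid IP. In the input Mpdz was far lower, at 39.0 to 55.3 CPM after PBS and 33.2 to 42.1 CPM after kainic acid, and its difference was -0.96 ± 0.15 in replicates 1 to 3 (adjusted p = 0.0116) and -0.77 ± 0.23 over 16 libraries (adjusted p = 1). Sptb shares exonic bases with Plekhg3 on the opposite strand.

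Camk2a, a kinase of excitatory neurons and here a marker of pyramidal cells, was lower in IP than in input in every pool, and its change was higher in the IP in replicates 1 to 3. The IP held 4601, 4652, 4609.8 and 3505 CPM after PBS and 5729.8, 5117, 5418 and 2859 CPM after kainic acid, and the inputs 8256, 8253, 7640.4 and 6986 CPM and then 6957, 6705, 7006 and 5864 CPM. Its difference was 0.43 ± 0.08 in replicates 1 to 3 (adjusted p = 0.0344) and 0.37 ± 0.24 over 16 libraries (adjusted p = 1). Fgl2, a fibrinogen-like protein, rested on few reads in the PBS IP, with counts of 7, 2, 9 and 30. It held 26.5, 47.8, 64.3 and 26.1 CPM in the kainic acid IP, 2.06 to 3.87 CPM in the PBS input and 26.5 to 45.7 CPM in the kainic acid input. The difference of 3.30 ± 0.59 (adjusted p = 0.0344) was 1.94 ± 0.64 with replicate 4 (adjusted p = 1).

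Replicates 1 to 3 with the pools as blocks, a fit added after the data were seen, gave 25 genes (0.214%), 9 higher and 16 lower. They include all 10 genes of the fit without the block and, of the 9 genes of the blocked fit over 16 libraries, all but Dnajb1 and Bag3. Across the 4 fits 27 genes passed at least once, and all 27 had the same sign in all 4 fits. The 4 fits share libraries, so the shared sign is no separate support. Among the further genes with a lower change were the spectrin gene Sptbn1 at -0.72 ± 0.12, the neurabin gene Ppp1r9a at -1.02 ± 0.10, the spinophilin gene Ppp1r9b at -0.70 ± 0.14, the actin-binding Limch1 at -1.07 ± 0.17 and the intermediate filament gene Ina at -0.83 ± 0.15. Amot (-1.19 ± 0.23), the anchoring protein gene Akap2 (-0.81 ± 0.14) and the granule protein gene Scg2 (-0.68 ± 0.11) were also lower. Higher were the mitochondrial genes of cytochrome b (0.37 ± 0.07) and Nd4 (0.48 ± 0.07), the neurotensin gene Nts (1.85 ± 0.36) and the small GTPase gene Rap2b (1.12 ± 0.22). Adjusted p-values of these 12 genes ran from 0.000127 for Ppp1r9a to 0.0497 for Ppp1r9b and Rap2b. Over 16 libraries without the block none of the 12 passed, with -1.17 for Amot to -0.39 for Scg2 among the 8 lower genes and 0.35 for cytochrome b to 1.54 for Nts among the 4 higher ones.

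The 25 genes also differed in how they stood in the IP before kainic acid. After PBS, 15 of the 16 lower genes were enriched in the PV IP, against 8.67% of all genes. Of the 16, 9 were among its 100 most enriched genes. The fold over input was 33.0 for Sptan1 (rank 3 of 11862), 29.7 for Ppp1r9a (rank 5), 22.3 for Mpdz (rank 7) and 19.9 for Limch1 (rank 9). Of the 9 higher genes 8 were depleted in the IP, against 7.22% of all genes. These ratios share the PBS libraries with the difference and are no separate support for it. In the CaMK2a line, which shares no library, log2 IP over input of Sptan1 after PBS was -0.24 to 1.03, of Ppp1r9a 0.71 to 1.37, of Limch1 -0.17 to 0.46 and of Mpdz 2.90 to 2.95. All CaMK2a PBS ratios were above 0 for 8 of the 16 lower genes and for 4 of the 9 higher genes. The share of all genes for which this held is not given. None of the 25 genes passed in the CaMK2a difference, where 12 of 11623 genes did (0.103%), and their values there ran from -1.12 to 1.60. The mitochondrial share of IP counts moved with the same contrast, from 1.90% to 2.01% after PBS to 2.80% to 3.38% after kainic acid in replicates 1 to 3, and the input share went from 7.99% to 9.67% up to 10.4% to 10.7%. In the same replicates the summed PV interneuron markers in the IP were 4852 to 5919 CPM after PBS and 4311 to 4706 CPM after kainic acid. The part of either in these results was not tested.

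Beside Tll1, the activity-regulated genes fixed for description rose in both fractions, and none of their differences passed over 16 libraries or in replicates 1 to 3 without the block. Fos rose 202-fold in the IP and 99.4-fold in the input, with a difference of 1.02 (95% interval -0.33 to 2.37). Fosb, an AP-1 subunit like Fos, rose 281-fold and 83.0-fold, and its difference of 1.76 (0.61 to 2.92) had an adjusted p of 1 and, with pools as blocks, of 0.0665. Npas4, a neuronal factor that recruits inhibitory synapses, rose 162-fold and 105-fold, with a difference of 0.63 (-0.96 to 2.21). Inhba, which encodes an activin subunit, rose 113-fold and 110.5-fold. Its difference was 0.03, and the interval of -1.24 to 1.30 spans differences in both directions.

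The remaining effectors had narrower intervals. Bdnf, the neurotrophin that strengthens synapses, went from a mean of 19.4 to 322 CPM in the IP and 44.8 to 478 CPM in the input, with a difference of 0.63 (0.14 to 1.13). The synaptic pentraxin gene Nptx2 had a difference of 0.41 (-0.31 to 1.13) and the prohormone convertase gene Pcsk1 of 0.21 (-0.32 to 0.74). Rgs2, a regulator of G protein signalling, had a difference of -0.75 (-1.37 to -0.13). Pool ratios of PBS and kainic acid did not overlap for Fosb, Bdnf, Rgs2 and Sst. They overlapped for Fos, Npas4, Inhba, Nptx2, Pcsk1, Scg2, Pvalb, Gad1 and Slc17a7. Over all genes, ratios did not overlap for 2.46% upward and 2.03% downward. The ratios come from the same libraries as the differences and are no separate support for them. Scg2, a precursor of secretoneurin, had -0.39 (-0.88 to 0.11) over 16 libraries and passed only in replicates 1 to 3 with pools as blocks, at -0.68 ± 0.11 (adjusted p = 0.00611). Among cell type genes, the peptide gene Sst rose 3.63-fold in the IP and 2.30-fold in the input (difference 0.66, 0.24 to 1.08). Pvalb itself had a difference of 0.58 (-0.41 to 1.57), the GABA-synthesising enzyme gene Gad1 of -0.05 (-0.49 to 0.39) and the vesicular glutamate transporter gene Slc17a7 of 0.32 (-0.51 to 1.14). Adjusted p was 1 for each of these genes over 16 libraries.

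**Figure D4:**
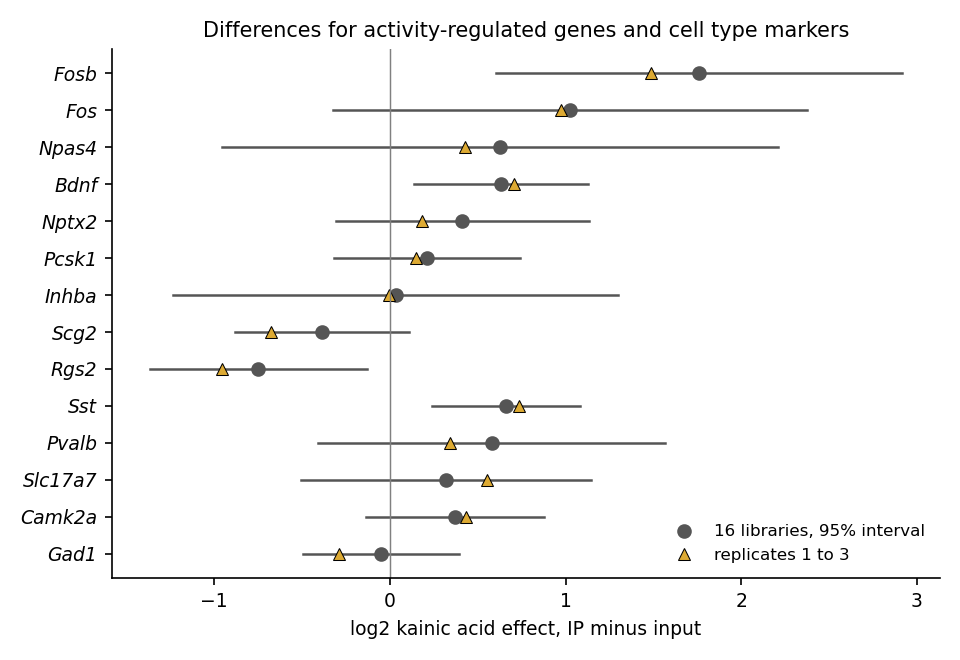
Log2 kainic acid effect in the IP minus that in the input for 14 activity-regulated genes and markers; circles and lines are the estimate and 95% interval over 16 libraries, triangles the estimate from replicates 1 to 3. Intervals of Fosb, Bdnf, Rgs2 and Sst leave out 0 before adjustment, and Scg2 moves from -0.39 to -0.67 without replicate 4.

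Gene lists are described by counts and medians, beside a median difference over all genes of 0.04. Of all genes, 6.54% rose and 2.4% fell in the IP, and 5.08% rose and 1.8% fell in the input. Of 25 inducible transcription factors tested, 22 rose in the IP and 22 in the input, with median changes of 3.64 and 2.54. Their differences were positive for 19 and negative for 6, with a median of 0.46 (0.42 without replicate 4). The extremes were Ier2 at 2.11, Egr2 at 2.01 and Maff at -2.61, none past the threshold. Of 30 activity-regulated effectors, 27 rose in each fraction, and the median difference was 0.14 (0.11 without replicate 4), with Tll1 and Pim1 (-1.86) lowest and Vgf (1.02) highest. Of 18 heat shock chaperones 9 rose in the IP and 8 in the input. Their median difference was 0.05 and, without replicate 4, -0.10. The highest difference was 1.86 for Hspa1b, whose sequence is nearly that of Hspa1a, so reads may be shared. For MAP kinase feedback inhibitors the median was -0.07 over 13 genes (-0.11 without replicate 4), and Dusp14 had the largest value at 1.22 ± 0.29 (adjusted p = 0.452).

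Of 36 tolloid, BMP and activin genes tested, 8 rose in the IP, against 6.54% of all genes, and 6 in the input, against 5.08%. Among them 1, Tll1, differed, against 0.0253% of all genes. The list was chosen with the Tll1 difference known, so that call says nothing about the list. The median difference was 0.06, with 21 positive and 15 negative, and 0.02 without replicate 4. The lowest values beside Tll1 were -2.48 for the follistatin-like Fstl3 and -1.83 for the chordin-like Chrdl1, both BMP or activin antagonists, and neither passed. The relative Tll2 had -0.03, the activin antagonist Fst -0.51, the inhibitory Smad gene Smad7 -0.08, and the ligands Bmp2 and Bmp4 1.34 and 1.38. Of 33 autophagy genes Vmp1 alone differed, and this list too was chosen with that difference known. Of the 33, 20 had a negative difference (median -0.15, and -0.17 without replicate 4). The Vmp1 partner Tmem41b, a lipid scramblase like Vmp1, had 0.55, the receptor gene Sqstm1 0.46, and Atg5 and Atg10 of the conjugation machinery -0.99 and -1.04.

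Fast-spiking channel genes had a median change of -0.07 in the IP and -0.37 in the input. In the IP 0 of 14 rose and 2 fell, and in the input 5 fell. The shares over all genes, for this and the following lists, were 6.54% up and 2.4% down in the IP. In the input they were 5.08% and 1.8%. Of the fast-spiking channel differences 11 were positive and none passed (median 0.31, and 0.24 without replicate 4). Scn1a, the sodium channel of PV cells, fell 1.59-fold in the input (adjusted p = 0.00346) and had a change of -0.13 ± 0.14 in the IP (adjusted p = 0.633). Perineuronal net proteins had a median difference of -0.01, with Acan, the aggrecan of the nets around PV cells, rising 3.69-fold in the IP and 10.5-fold in the input (difference -1.51 ± 0.52, adjusted p = 1). Neuropeptide precursors rose for 11 of 19 genes in the IP and 10 in the input (median difference 0.30, or 0.29 without Trh, which was at 0 counts in a whole group). Without replicate 4 the neuropeptide median was -0.01, and 0.05 when the pools were also blocks. Reactive astrocyte genes rose for 17 of 22 in the IP and 15 in the input, and cytokine genes for 17 of 21 and 13. Without members at 0 counts in a whole group, 3 and 7, their median differences were 0.30 and 0.45. Without replicate 4 and with all members tested, these medians were 0.95 and 0.58, against 0.63 and 0.03 with it.

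**Figure D5:**
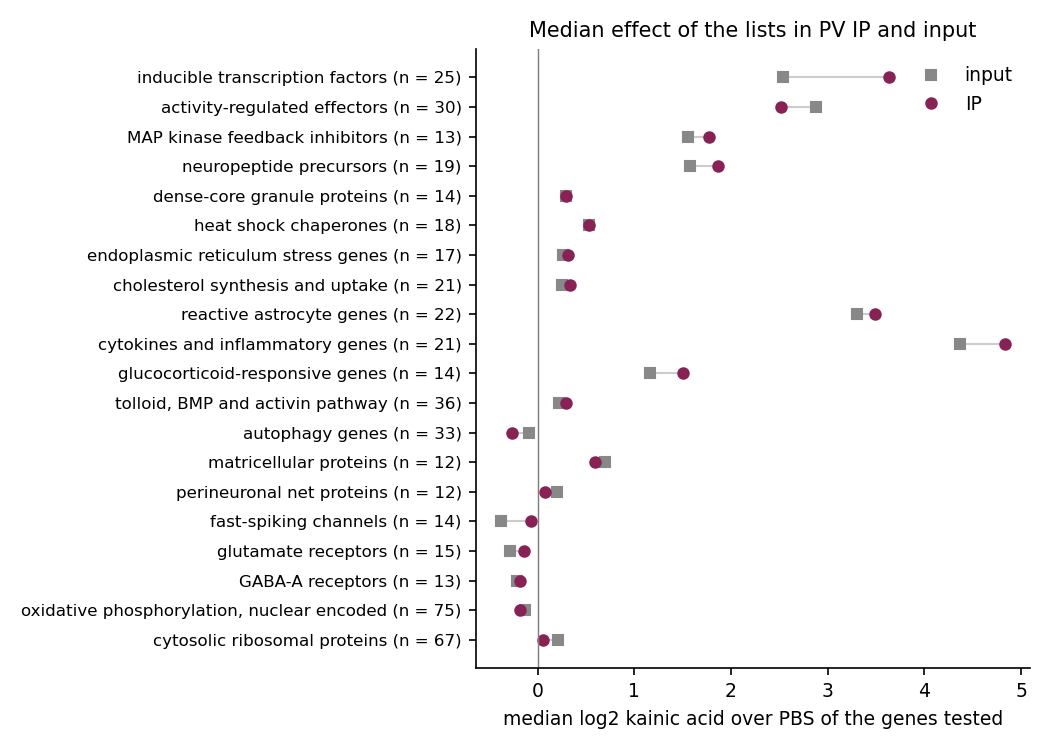
Median log2 change after kainic acid over the tested genes of 20 lists, in PV IP (circles) and PV input (squares), with the number of genes tested in brackets. IP and input lie close for most lists, and the inducible transcription factors show 3.64 in the IP against 2.54 in the input.

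Summed markers of the tagged cells and of pyramidal neurons moved in opposite directions in the IP of replicates 1 to 3, and replicate 4 went the other way in both. The summed PV interneuron markers held 4852, 5919, 5321 and 5609 CPM in the PBS IP and 4618, 4706, 4311 and 7305 CPM in the kainic acid IP, replicates in order. The summed CA1 pyramidal markers held 5739.8, 5769, 5761 and 4939.7 CPM in the PBS IP and 7208, 6413, 6689.7 and 3950 CPM in the kainic acid IP. In replicates 1 to 3 every kainic acid IP library was thus below every PBS IP library for the PV sum and above all of them for the CA1 sum. The CA1 sum largely followed Camk2a, which alone held 4601 to 4652 CPM and then 5117 to 5729.8 CPM in these replicates. In replicate 4 Camk2a held 3505 and 2859 CPM. Of 11 CA1 markers, 1 rose and 1 fell in the IP over 16 libraries, where 6.54% of all genes rose and 2.4% fell. Without replicate 4, 4 of these markers rose and 1 fell, and the share of all genes in that fit is not given. In the inputs both sums were lower after kainic acid in these replicates, at 1234 to 1333 CPM and then 1101 to 1155 CPM for PV markers, and at 10060 to 10992 CPM and then 8884 to 9139.5 CPM for CA1 markers.

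Over 16 libraries the 12 PV markers had a median difference of 0.06, and without replicate 4 it was -0.19. Of the 12, 2 rose and 1 fell in the IP over 16 libraries, where 6.54% of all genes rose and 2.4% fell. Without replicate 4, 2 rose and 5 fell, and the share of all genes in that fit is not given. All 11 CA1 pyramidal markers had a positive difference (0.09 to 0.64, median 0.37, and 0.47 without replicate 4), and so did all 5 dentate granule cell markers (median 0.42, and 0.29 without replicate 4). The 9 CA2 and CA3 pyramidal markers did not share this, with 5 positive and 4 negative (-0.92 to 1.66, median 0.09). None of these excitatory markers passed over 16 libraries, and Camk2a passed in replicates 1 to 3. Median differences were 0.03 for 12 astrocyte markers (0.12 without replicate 4), -0.10 for 8 oligodendrocyte markers (0.00 without it) and 0.00 for 12 microglia markers (0.10 without it). The part of these marker shifts in the differences of other genes, among them Jun, Egr1 and the genes enriched in the PV IP, was not tested.

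The CaMK2a line gives the same contrast in mice whose tag is driven mainly in excitatory neurons. Its libraries also differ from the PV libraries in mice per pool and RNA amount. The part of this in differences between the lines was not tested. The PV difference minus the CaMK2a difference passed for 2 of 12194 genes (0.0164%), Tll1 and Bag3. Tll1 was barely present in the CaMK2a IP after PBS, with 0.536, 1.09 and 2.02 CPM, and reached 40.6, 46.6 and 76.7 CPM after kainic acid. The CaMK2a inputs held 3.83, 3.81 and 1.64 CPM and then 42.2, 54.3 and 55.3 CPM. After PBS each of these inputs lay below every PV input, which held 4.43 to 6.31 CPM. Its CaMK2a difference was 1.60 ± 0.53 (adjusted p = 0.363), opposite in sign to -2.47 in the PV line, and the lines differed by -4.09 ± 0.63 (adjusted p = 0.00603). Bag3 reached 204, 187 and 247 CPM in the CaMK2a IP after kainic acid from 6.37, 6.54 and 5.45 CPM after PBS. Its CaMK2a difference was 1.22 ± 0.24 (adjusted p = 0.0607), and the lines differed by -2.82 ± 0.48 (adjusted p = 0.0129). Vmp1 had a CaMK2a difference of 0.08 ± 0.21, and the lines differed by 1.31 ± 0.30, which missed the threshold (adjusted p = 0.18) and passed with pools as blocks (adjusted p = 0.0277). Fam43a went the same way, at -1.96 ± 0.41 (adjusted p = 0.164) and, with the block, 0.0277. Without PV replicate 3 no gene passed in this test, with 533 at an unadjusted p under 0.05.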

How the data were processed

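The authors deposited counts per gene in separate tables for PV IP and PV input, each split into genes higher and lower after kainic acid and marked as coding, unnormalized by their values; BWA, edgeR and mm10 are named in the submitters' processing notes, and versions and strandedness are not given in the sources used here. The 2 tables were joined on gene ID (13428 shared genes) and filtered with filterByExpr (minimum count 10), leaving 11862. Effects were fitted with edgeR 4.0.16 (TMM, quasi-likelihood test) over all 16 libraries, with p-values adjusted by Benjamini-Hochberg over all genes and a threshold of 0.05. SE was taken as the absolute log2 change divided by the root of the F statistic. CPM uses TMM-scaled library sizes.

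The text names, among genes past the threshold with a mean log2 CPM of at least 3 (clone names and predicted genes left out), up to 12 with the largest difference in each direction (6 with replicates 1 to 3), a fixed set of 16 genes, and from every list as many as 3 genes whose difference was furthest from 0. Other list members and the genes of blocked fits were named after their values were seen. Genes and lists were chosen with earlier results of these data known. IP and input of a pool share a lysate per the series' design text, and the same replicate number was taken as the same pool. Deviations of same-numbered IP and input libraries correlated at 0.147 to 0.654 across 8345 genes, with the own input highest in 7 of 8 pools. Without replicate 4 this was 0.00855 to 0.0818, and 4 of 6. Alternatives were other scalings, filters, DESeq2, blocks and left-out libraries. Of 134 named genes, 28 share exonic bases with an opposite-strand gene. MicroRNA sequences are from RefSeq. Results of 2 genes past the threshold are not reported here.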

Additional observations from a re-analysis of the deposited data

Results flagged for a closer look

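Single libraries lay apart from the other 3 of their group in 4 of 44 groups examined over 11 genes. All were IP libraries of replicate 4. Chance alone places about 1 in 20 groups apart. The libraries were flagged for Camk2a, Sptb and Sptan1, whose differences passed only in fits without replicate 4. The count therefore cannot be weighed against the share by chance. Camk2a held 3505 CPM in the PBS IP against 4601 to 4652 CPM in the others, and 2859 CPM in the kainic acid IP against 5117 to 5729.8 CPM. Sptb held 139.1 CPM in the kainic acid IP against 326.4 to 332.8 CPM. Sptan1 held 10003 CPM in the PBS IP against 21117 to 23829 CPM. The same libraries had the lowest mitochondrial shares of their groups, and the part of this in the values was not tested.

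The PV difference minus the CaMK2a difference passed the threshold in edgeR's quasi-likelihood test for Tll1 at -4.091 and for Bag3 at -2.816, each a test of the difference between the lines.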

How the results depend on the processing

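The PV difference passed for 3 genes under both other scalings, without the low-count filter, with a stricter one and with all genes of either table. DESeq2 gave 7, the replicate block by number 7 and the replicate block of lysate pools 9. Leaving out a replicate gave 0 to 10, with 0 without replicate 1, 2 or 3 and 10 without replicate 4. The pool block without replicate 4, chosen after seeing the data, gave 25. PV minus CaMK2a gave 2 genes, 17 with DESeq2, 15 with the block by number, 18 with the pool block, 0 to 12 over left-out PV replicates and 34 with the pool block without replicate 4. Differences called in lists, 0 for transcription factors, became 2 with the pool block, 1 without replicate 4 and 2 with both. Effectors went from 1 to 2 with both. Neuropeptides and dense-core proteins went from 0 to 1 with both, heat shock genes to 2 with the pool block, and CA1 pyramidal markers to 1 without replicate 4 and 1 with both. No named gene past the threshold changed sign. The median difference of 6 of the 35 lists did without replicate 4: neuropeptides 0.30 to -0.01, heat shock 0.05 to -0.10, cholesterol genes 0.09 to -0.06, PV markers 0.06 to -0.19, oligodendrocyte markers -0.10 to 0.00 and ependymal markers -0.21 to 0.10. The cause of the moves was not tested. The 95% interval reached a median of 0.93 to either side over all genes and 0.74 at a mean log2 CPM of at least 3. The part of depth in these widths was not tested.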
